A study of Mus musculus with 8 samples.

Results

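A set of 8 genes of cholesterol handling was followed through single-nucleus RNA profiles of mouse visceral white adipose tissue. They were chosen by symbol, as Nr1h3, Abca1, Abcg1, Apoe, Npc1, Npc2, Soat1 and Insig1, and each symbol matched 1 of the 56749 features in the count tables. All 8 genes were measured in 8 libraries, 1 per mouse, in 4 groups of 2 mice. All mice carried the red fluorescent protein mCherry at one allele of p21, the cell-cycle inhibitor gene also named Cdkn1a, so that allele also stands in the controls. Mice of genotype p21+/mCherry ate a standard diet (mCherry SD, rep144 and rep146) or a high-fat diet (mCherry HFD, rep128 and rep129). Mice of genotype p21+/mCherry-Tert (Tert HFD, rep134 and rep136) and p21+/mCherry-TertCi (TertCi HFD, rep138 and rep140) ate the high-fat diet, where Tert is the gene of the catalytic subunit of the telomere-lengthening enzyme. The labels do not say what sets TertCi apart from Tert, and no Tert or TertCi mouse ate the standard diet. Wherever all 8 values of a gene are given, they follow the order of replicates just named.

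Cells rid themselves of excess cholesterol by pathways that these genes serve. Nr1h3 encodes LXR alpha, a nuclear receptor that binds oxidised sterols and switches on genes of efflux. Among its textbook targets are Abca1 and Abcg1, which export cholesterol to acceptor particles, and Apoe, a secreted apolipoprotein that carries it. Npc2 and Npc1 pass cholesterol out of lysosomes, Soat1 esterifies it for storage in droplets, and Insig1 retains the sterol sensor of SREBP2, the factor that drives synthesis, in the endoplasmic reticulum. In obese adipose tissue, macrophages are known to surround dying adipocytes, take up their lipid and form the lipid-associated state.

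LXR acts through a direct repeat of AGGTCA spaced by 4 bases, and Abca1 is its best known target in macrophages, so the bases before the start of Abca1 are shown to place that element. They come from RefSeq promoter windows on build GRCm38.p6, which is not the build named in the submitters' processing notes. The window lies at chr4:53159896-53160145 on the minus strand and is written 5′ to 3′ along the gene, ending at the base before the start. Capitals mark a match, on the opposite strand, to a relaxed form of the element.
Abca1: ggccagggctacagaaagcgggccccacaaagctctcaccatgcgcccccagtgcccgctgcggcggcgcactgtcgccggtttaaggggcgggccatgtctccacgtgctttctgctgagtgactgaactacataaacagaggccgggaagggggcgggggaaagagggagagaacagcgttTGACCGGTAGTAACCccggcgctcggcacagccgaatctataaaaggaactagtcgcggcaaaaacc
The match reads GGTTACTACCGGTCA on the other strand and lies 67 to 53 bases before the start. Both strands of 32851 windows were searched. The strict form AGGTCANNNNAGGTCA was present in 0.0152% of them and in none of the 9 windows of members. The relaxed form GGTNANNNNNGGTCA was written with the Abca1 sequence in view. It was present in 0.207% of all windows and in 1 of the 9, that of Abca1. Apoe, Nr1h3, Npc2, Soat1 and Insig1 had windows, and Abcg1 and Npc1 were not searched. A match describes letters and is not evidence of binding.

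The libraries held 23378488 to 139749876 UMIs, molecules counted once each, and 30209 nuclei were kept. Tert HFD rep136 had the shallowest nuclei, with a median of 1704 UMIs, and mCherry HFD rep128 the deepest, with 7253. The same libraries had the lowest and the highest UMI cutoff for a nucleus, 987 and 4704. Any pair of libraries shared at most 16 of its cell barcodes. Nuclei were clustered without the 8 genes and without the related genes described below, and classes were named from marker genes. The series' design text speaks of stromal vascular cells, which the sample labels do not. It also speaks of p21+/- mice, and the titles of the mCherry samples call them P21het, while their labelled genotype is p21+/mCherry. Adipocyte-like nuclei were present in every library, so the labels were followed. Neither inserted gene could check them. Over all kept nuclei Tert stood at 1.4 to 3.9 CPM (UMIs of the gene per 1000000 UMIs) and was not higher in the Tert or TertCi libraries, and mCherry was at most 0.2 CPM. Cdkn1a stood at 1.16 and 1.94 CPM in mCherry SD, 12.4 and 9.61 in mCherry HFD, 7.05 and 2.88 in Tert HFD and 5.44 and 3.70 in TertCi HFD.

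Macrophage-like nuclei numbered 97 and 159 in mCherry SD, 3715 and 1383 in mCherry HFD, 925 and 921 in Tert HFD, and 1133 and 303 in TertCi HFD. All 8 macrophage markers were present in the class, at 3436 to 4941 CPM together. The clusters inside the class differed between groups. Clusters led by Clec7a and Ms4a7, by Mmp12 and Gpnmb, and by Vsig4 and Ccl8 held most nuclei of mCherry HFD. A cluster led by F13a1 and Cd163 held most nuclei of mCherry SD, of Tert HFD rep134 and of TertCi HFD rep138, and with a cluster led by Tmem267, Cd226 and Skint3 it held most of the remaining ones. The summed lipid-associated markers stood at 324 and 410 CPM in mCherry SD, 5340 and 4582 in mCherry HFD, 1864 and 2303 in Tert HFD, and 1490 and 1617 in TertCi HFD. A value summed over the class therefore joins the level per nucleus with the makeup of the class.

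In macrophage-like nuclei, Abcg1, Apoe, Npc2 and Soat1 rose with the high-fat diet between mCherry SD and mCherry HFD, while Abca1, Npc1, Nr1h3 and Insig1 did not pass the test. The test was edgeR's quasi-likelihood test on UMIs summed per mouse, with Benjamini-Hochberg adjustment over 13548 genes and a threshold of 0.05. Changes are given as log2 fold changes after TMM scaling, the first-named group minus the second, so they need not equal the ratio of CPM values. Shares of all genes called count both directions unless one is given. Among all genes tested, 21.1% were called, 11.5% as higher and 9.54% as lower. Of the 8 members, 4 were called, all as higher. With library totals in place of TMM scaling, the median log2 change of all genes moved from 0.11 to 0.26 and the share of called genes that were higher from 54.7% to 66.3%, and the same 4 members were called along with Nr1h3.

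Nr1h3, the sterol receptor, stood at 18.3 and 11.97 CPM in mCherry SD, 43.7 and 35.1 in mCherry HFD, 22.6 and 33.5 in Tert HFD and 25.5 and 14.2 in TertCi HFD. Both mCherry HFD mice were above both mCherry SD mice, and the SD values rested on 6 and 9 UMIs. The diet change was 1.34 (SE 0.45, adjusted p = 0.0513), just outside the threshold of edgeR. It was inside it in 10 of 22 alternatives.

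Abca1, the exporter to lipid-poor apolipoprotein, stood at 535 and 633 CPM in mCherry SD, 489 and 525 in mCherry HFD, 833 and 598 in Tert HFD and 584 and 514 in TertCi HFD. The mCherry HFD mice were the lowest pair but close to SD, and the change of -0.36 (SE 0.15, adjusted p = 0.107) did not pass in edgeR. Abcg1, the exporter to formed lipoprotein particles, stood at 12.2 and 45.2 CPM in mCherry SD, 186 and 174 in mCherry HFD, 120.3 and 126 in Tert HFD and 102 and 105 in TertCi HFD. No SD value reached a high-fat value, and the SD pair differed among itself, with 4 and 34 UMIs. Abcg1 rose by 2.28 (SE 0.30, adjusted p = 0.000269) in edgeR and was called in all 22 alternatives, from 1.67 to 3.66. Apoe stood at 21.4 and 61.2 CPM in mCherry SD, 303 and 294 in mCherry HFD, 159 and 23.2 in Tert HFD and 107 and 36.7 in TertCi HFD. Tert HFD rep136 and TertCi HFD rep140 were as low as SD, so the mice within these groups differed widely. Apoe rose with diet by 2.54 (SE 0.68, adjusted p = 0.0201) in edgeR. The value was 2.15 without mCherry SD rep144 (adjusted p = 0.168) and 3.58 without mCherry SD rep146 (adjusted p = 0.135), so the call needed both SD mice.

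Npc1, the membrane protein of lysosomal release, stood at 91.6 and 54.5 CPM in mCherry SD, 111 and 102 in mCherry HFD, 81.9 and 66.9 in Tert HFD and 59.2 and 47.6 in TertCi HFD. The SD pair lay far apart, and the diet change of 0.48 (SE 0.24, adjusted p = 0.177) did not pass. Without mCherry SD rep146 it was -0.00231 (adjusted p = 0.999). Npc2, its soluble partner in the lysosomal lumen, stood at 67.2 and 57.2 CPM in mCherry SD, 135 and 132 in mCherry HFD, 85.7 and 68.3 in Tert HFD and 69.7 and 66.8 in TertCi HFD. The mCherry HFD mice were above all other mice. Npc2 rose by 0.98 (SE 0.20, adjusted p = 0.00424) in edgeR, and the value was 0.76 without mCherry SD rep146 (adjusted p = 0.109).

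Soat1, which makes cholesteryl esters, stood at 104 and 113 CPM in mCherry SD, 342 and 289 in mCherry HFD, 183 and 244 in Tert HFD and 157 and 144.4 in TertCi HFD. The groups ran from SD at the bottom through TertCi HFD and Tert HFD to mCherry HFD, with no overlap between any of them. How many of all genes separate the groups in this way was not counted. Soat1 rose with diet by 1.38 (SE 0.22, adjusted p = 0.00111) in edgeR, in all 22 alternatives. Insig1 stood at 0 and 15.96 CPM in mCherry SD, 22.6 and 25.6 in mCherry HFD, 15.8 and 9.56 in Tert HFD and 14.96 and 9.18 in TertCi HFD. It had no UMI in mCherry SD rep144, where a count of 0 allows up to 3 UMIs, and its change of 1.04 (SE 0.57, adjusted p = 0.216) did not pass.

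**Figure D1:**
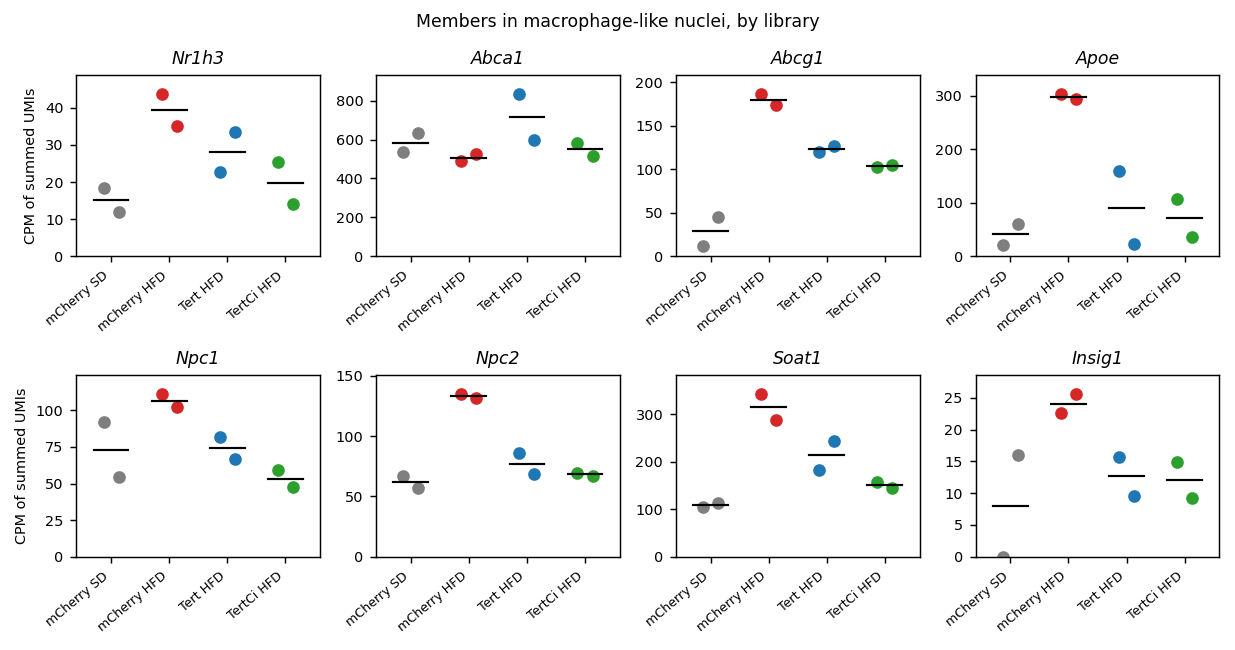
CPM, from summed UMIs, in macrophage-like nuclei for the 8 genes. Each point is 1 mouse, each bar the mean of 2 mice, and axes start at 0. Soat1 shows 4 groups that do not overlap, while the pair of mice in Tert HFD and in TertCi HFD lie far apart for Apoe.

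Of the high-fat mice, those labelled Tert or TertCi were then set against mCherry HFD. These contrasts and the diet contrast share the mCherry HFD mice, so a low or high pair there moves all of them. In Tert HFD, Abca1 rose and Npc2 fell. In TertCi HFD, Abcg1, Apoe, Npc1, Npc2 and Soat1 fell. Over all genes tested in macrophage-like nuclei, 19.1% were called in the Tert contrast (7.41% higher, 11.7% lower) and 25.7% in the TertCi contrast (10.4% higher, 15.3% lower). The members' counts were 2 of 8 (1 in each direction) and 5 of 8 (all lower). The counts depended on which clusters entered. Without the cluster led by Tmem267, Cd226 and Skint3 they were 5 for Tert (Abca1 higher, and Abcg1, Apoe, Npc2 and Soat1 lower), against 22.9% of genes, and 7 for TertCi (Abca1 higher and 6 lower), against 30.5%. That cluster held 62.5% of the macrophage-like nuclei of Tert HFD rep136, and 412 of its 576 nuclei there fell in a lipid-associated-like subcluster led by Tmem267 and Taco1. Without that subcluster and the cycling cluster they were 5 for Tert (Abca1 higher, and Abcg1, Npc2, Nr1h3 and Soat1 lower), against 24.7%, and 6 for TertCi (all lower), against 31.4%. The subcluster held 182 and 433 nuclei of Tert HFD, 261 and 77 of TertCi HFD and 0 and 7 of mCherry HFD. In it Abcg1 averaged 225 CPM and Soat1 368 CPM in Tert HFD, and 243 and 310.01 CPM in TertCi HFD. Both exclusions take nuclei of that subcluster from the Tert and TertCi sums and few of them from mCherry HFD. The first also takes nuclei of a subcluster led by Cd226 and Thsd4. These numbered 71 and 61 in Tert HFD, 170 and 48 in TertCi HFD and 80 and 20 in mCherry HFD. The part of either subcluster in the counts was not tested. The second also takes the cycling nuclei of mCherry HFD, and in all it removed 338 and 93 nuclei there. No direction is read from these counts. Both exclusions were chosen after seeing the data. With library totals, the share of called genes that were higher moved from 38.8% to 26.7% for Tert and from 40.4% to 28.7% for TertCi, and the median of all genes from -0.05 to -0.17 and from -0.08 to -0.23.

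Abca1 was 0.63 higher in Tert HFD on the log2 scale (SE 0.15, adjusted p = 0.0101 by edgeR). It was 0.50 (adjusted p = 0.0617) with library totals and 0.60 without mCherry HFD rep128 (adjusted p = 0.113). Its TertCi contrast of 0.27 (adjusted p = 0.207) did not pass. Abcg1 was -0.65 (SE 0.22, adjusted p = 0.0488) in TertCi HFD, close to the threshold. Each mouse of that contrast was needed for the call: the values were -0.58 without mCherry HFD rep128 (adjusted p = 0.239), -0.68 without mCherry HFD rep129 (adjusted p = 0.11), -0.61 without TertCi HFD rep138 (adjusted p = 0.273) and -0.61 without TertCi HFD rep140 (adjusted p = 0.176). Abcg1 in Tert HFD, at -0.41 (adjusted p = 0.223), was not called. Apoe was -1.82 (SE 0.54, adjusted p = 0.0277) in TertCi HFD. This call too was lost when a mouse was left out, at -1.75 without mCherry SD rep144 (adjusted p = 0.0609), -1.74 without mCherry SD rep146 (adjusted p = 0.059), -1.79 without mCherry HFD rep128 (adjusted p = 0.0734), -2.86 without TertCi HFD rep138 (adjusted p = 0.056) and -1.28 without TertCi HFD rep140 (adjusted p = 0.151). Its Tert contrast of -1.52 (adjusted p = 0.0622) did not pass.

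Npc1 fell in TertCi HFD, at -0.83 (SE 0.21, adjusted p = 0.012) in edgeR. The values that missed the threshold were -0.75 without mCherry HFD rep128 (adjusted p = 0.101), -1.001 without TertCi HFD rep138 (adjusted p = 0.0702) and -0.65 without TertCi HFD rep140 (adjusted p = 0.121). Npc2 was lower in both genotypes, with -0.64 (SE 0.16, adjusted p = 0.0149) in Tert HFD and -0.81 (SE 0.16, adjusted p = 0.00373) in TertCi HFD. The Tert call was lost at -0.61 without mCherry HFD rep128 (adjusted p = 0.141), -0.65 without mCherry HFD rep129 (adjusted p = 0.0754) and -0.53 without Tert HFD rep136 (adjusted p = 0.0622), and the TertCi call at -0.83 without TertCi HFD rep138 (adjusted p = 0.0565). Soat1 fell in TertCi HFD, at -0.92 (SE 0.19, adjusted p = 0.00498). It was -0.77 without mCherry HFD rep128 (adjusted p = 0.0558) and -0.96 without TertCi HFD rep138 (adjusted p = 0.0591). In Tert HFD Soat1 was -0.42 (adjusted p = 0.148), short of the threshold, and -0.58 (adjusted p = 0.0316) with library totals. Nr1h3 and Insig1 were not called in either genotype. Nr1h3 was -0.41 (adjusted p = 0.39) and -0.76 (adjusted p = 0.0951), and Insig1 was -0.72 (adjusted p = 0.229) and -0.75 (adjusted p = 0.198), for Tert and TertCi.

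Between Tert HFD and TertCi HFD no gene was called in macrophage-like nuclei by edgeR, with 532 of 13548 genes, 2 of them members, at an unadjusted p under 0.05, and none by DESeq2. The members' differences in log2, Tert minus TertCi, ran from 0.03 to 0.50. A member called against mCherry HFD in one genotype and not in the other was thus not shown to differ between them. In the other classes and in all kept nuclei no member was called between these groups by edgeR either (at most 0.0119% of all genes were, 1 in perivascular-like nuclei), with 0 to 2 members at an unadjusted p under 0.05. DESeq2 called 1 member over all kept nuclei and none elsewhere.

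RNA set free during preparation enters every droplet, and barcodes of 100 to 500 UMIs, too poor to be nuclei, show its makeup. In them Apoe stood at 12.5 and 49.97 CPM in mCherry SD, 1352 and 1012 in mCherry HFD, 168 and 16.4 in Tert HFD and 61.9 and 22.5 in TertCi HFD. That is more than in macrophage-like nuclei of the mCherry HFD mice. Soat1 stood at 28.6 and 26.4 CPM in mCherry SD, 277 and 245 in mCherry HFD, 90.4 and 108 in Tert HFD and 54.98 and 54.7 in TertCi HFD, below the macrophage-like level in all 8 libraries. The groups stood there in the same order as in macrophage-like nuclei, also with no overlap. Npc2 stood at 42.9 and 42.3 CPM in mCherry SD, 303 and 230.4 in mCherry HFD, 73.8 and 55.1 in Tert HFD and 61.8 and 62.8 in TertCi HFD, above the macrophage-like level in both mCherry HFD mice. Abcg1 stood at 24.1 and 24.2 CPM in mCherry SD, 98.8 and 85.2 in mCherry HFD, 57.9 and 58.9 in Tert HFD and 50.3 and 48.5 in TertCi HFD, below it in 7 of 8 libraries. Abca1 was below it in 7, Npc1 in 8, Nr1h3 in 2 and Insig1 in none, so the Insig1 and Nr1h3 values in macrophage-like nuclei were mostly no higher than in poor barcodes. An estimate of free RNA was then subtracted from each sum, set at the median UMIs of a poor barcode for each nucleus. In mCherry HFD rep128 this took the sum from 27356257 to 26206132 UMIs. After the subtraction, the same 4 members were called with diet and the same 2 for Tert. Of the 5 called in TertCi HFD 3 were left, since Abcg1 became -0.62 (adjusted p = 0.0569) and Apoe -1.42 (adjusted p = 0.0668).

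**Figure D2:**
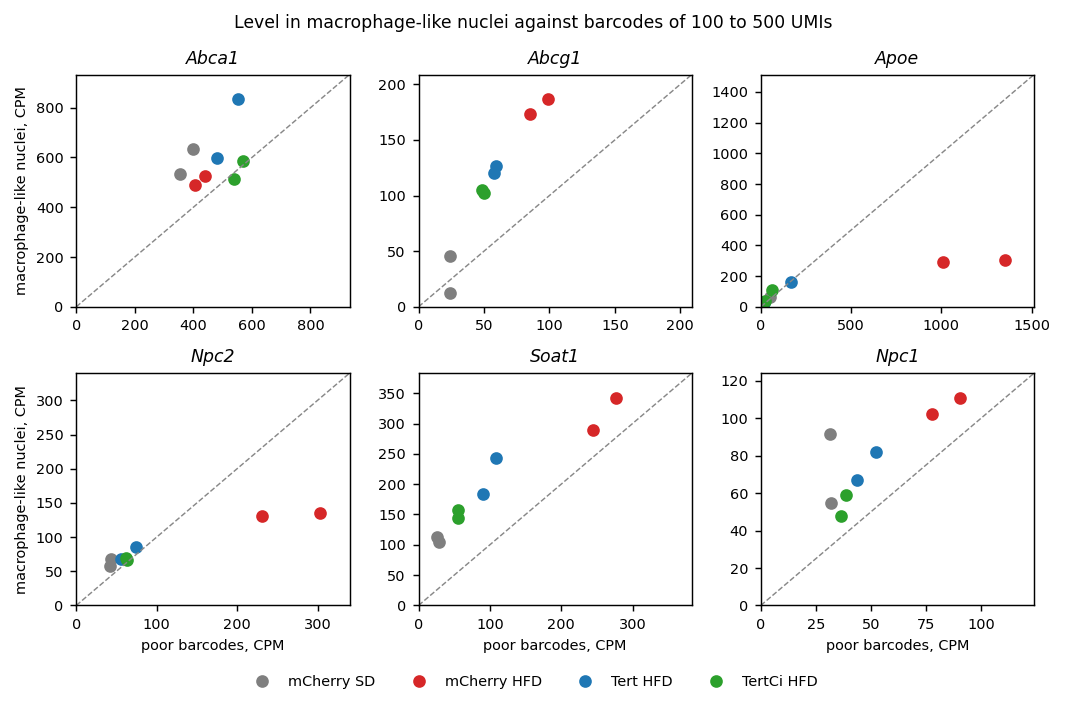
Level in macrophage-like nuclei (vertical) against the level in barcodes of 100 to 500 UMIs (horizontal), both in CPM on linear axes from 0, for 6 of the genes. Each point is a mouse and the dashed line marks equal levels: Soat1 and Npc1 lie above it in all 8 mice, and Apoe and Npc2 of the mCherry HFD mice lie below it.

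Nuclei differed in depth, so each was thinned to 1000 UMIs before nuclei with a UMI were counted, which left out 28 macrophage-like and 3 adipocyte-like nuclei of Tert HFD rep136. Abcg1 was then found in 0 and 6.29% of macrophage-like nuclei in mCherry SD, 15.9% and 15.6% in mCherry HFD, 8.22% and 10.4% in Tert HFD, and 8.56% and 8.25% in TertCi HFD. In adipocyte-like nuclei the share lay between 2.82% and 5.82% in every library. Unthinned, the macrophage-like shares ran from 4.12% to 57.0%. The Soat1 share was 7.22% and 15.1% in mCherry SD, 27.0% and 24.1% in mCherry HFD, 15.7% and 19.7% in Tert HFD, and 12.5% and 9.90% in TertCi HFD. Adipocyte-like nuclei carried it at 0.510% to 10.6%. Unthinned, the Soat1 share of macrophage-like nuclei ran from 23.7% to 80.3%. For Soat1 the order of the groups was the same as in CPM, apart from an overlap of SD with TertCi HFD. For Abcg1 the shares of Tert HFD and TertCi HFD overlapped, which their CPM values did not. Median depth of macrophage-like nuclei ran from 1361 to 6369 UMIs, and that of adipocyte-like nuclei from 2086 to 13890.

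Macrophage-like nuclei were clustered again. Lipid-associated-like subclusters (markers such as Trem2, Gpnmb and Lpl) held 13 and 20 nuclei in mCherry SD, 2023 and 665 in mCherry HFD, 251 and 543 in Tert HFD, and 318 and 103 in TertCi HFD. Perivascular-like ones (Lyve1, Cd163, Timd4) held 71 and 116, 674 and 242, 561 and 294, and 633 and 143 in the same order. One of the former was led by cell-cycle genes such as Top2a, one by mitochondrial transcripts, and one came to 44.5% from Tert HFD rep136, and these were named with the rest by their raised markers. The last, led by Tmem267 and Taco1, was weakly named. Its markers had a mean log2 rise of 1.16 where 1 was needed, against 1.97 in the subcluster led by Gpnmb and Mmp12. Its leading genes held no marker of the state, and its median was 2973 UMIs. At least 20 nuclei were required of a library, so mCherry SD rep146 alone stood for SD in lipid-associated-like nuclei, and diet values there compare 1 mouse with 2. The test then takes the spread of the lone mouse to be that of the other groups. The same subclusters did not make up a state in every group. Of the perivascular-like nuclei of mCherry HFD, 672 and 234 lay in a subcluster led by Vsig4 and Ccl8, which held 20 and 4 nuclei of Tert HFD and at most 1 of any other mouse. Nearly all those of the other groups lay in a subcluster led by Timd4 and F13a1, which held 2 and 8 nuclei of mCherry HFD. Of the lipid-associated-like nuclei of mCherry HFD, 1657 and 523 lay in the subcluster led by Gpnmb and Mmp12, with 17 and 3 nuclei of Tert HFD and 1 and 0 of TertCi HFD. Most of those of Tert HFD (182 and 433) and TertCi HFD (261 and 77) lay in a subcluster with 0 and 7 nuclei of mCherry HFD. Contrasts within a state that involve mCherry HFD therefore compare largely separate subclusters, and a change within 1 subcluster was not tested. Unnamed subclusters, with fewer than 3 raised markers or a mean log2 rise under 1, held 11 and 19 nuclei in mCherry SD, 988 and 469 in mCherry HFD (26.6% and 33.9% of the class), 99 and 75 in Tert HFD and 176 and 53 in TertCi HFD. At a higher resolution a subcluster with Clec7a and Ms4a7 among its leading genes was named lipid-associated-like, with a mean rise of 1.03.

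The exporters and the receptor had different levels in the 2 named states. Abca1 was higher in perivascular-like nuclei, at 559 and 769.7 CPM in mCherry SD, 743 and 712 in mCherry HFD, 1007 and 773 in Tert HFD and 739 and 796 in TertCi HFD, against 345 CPM in mCherry SD rep146 alone, 280.5 and 331 in mCherry HFD, 568 and 541 in Tert HFD and 464 and 296 in TertCi HFD in lipid-associated-like ones. Abcg1 went the other way, with 81.1 CPM in mCherry SD rep146 alone, 197 and 198 in mCherry HFD, 247 and 145.8 in Tert HFD and 226 and 185 in TertCi HFD in lipid-associated-like nuclei and 8.47 and 35.6 CPM in mCherry SD, 95.7 and 71.6 in mCherry HFD, 66.3 and 95.1 in Tert HFD and 38.9 and 62.96 in TertCi HFD in perivascular-like ones. In each library with both states, Abca1 was higher in the perivascular-like and Abcg1 in the lipid-associated-like state. Nr1h3 averaged 46.1 ± 11.8 CPM in lipid-associated-like nuclei (SD, n = 7 libraries) and 14.2 ± 7.12 in perivascular-like ones (n = 8), and Soat1 308 ± 84.0 and 127 ± 47.8. The unnamed nuclei of mCherry HFD were high in both exporters, with 783 and 722 CPM of Abca1 and 234 and 200.1 CPM of Abcg1. States were formed from the same nuclei, and no test was made between them.

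Within perivascular-like nuclei, Apoe stood at 25.4 and 71.2 CPM in mCherry SD, 674 and 579 in mCherry HFD, 217 and 44.4 in Tert HFD and 166 and 70.4 in TertCi HFD. It rose with diet by 3.37 (SE 0.51, adjusted p = 0.000493) and was lower in Tert HFD, at -1.99 (adjusted p = 0.00272), and in TertCi HFD, at -2.18 (adjusted p = 0.00103), in edgeR. All 3 values were called with every mouse left out in turn, and DESeq2 called neither genotype value. Both mCherry HFD values were below those of poor barcodes in the same libraries (1352 and 1012 CPM), whose group means stand in the same order. With free RNA subtracted, an alternative chosen after seeing the data, they were 3.28 (adjusted p = 0.000974), -1.88 (adjusted p = 0.00542) and -2.05 (adjusted p = 0.00228). By subcluster, Apoe stood at 674 and 581 CPM in the Vsig4 and Ccl8 subcluster of mCherry HFD and at 274 in that of Tert HFD rep134, and in the Timd4 subcluster at 25.4 and 64.6 in mCherry SD, 214 and 44.9 in Tert HFD and 166 and 70.8 in TertCi HFD. Soat1 stood at 93.2 and 93.6 CPM in mCherry SD, 212 and 177 in mCherry HFD, 116 and 150.0 in Tert HFD and 88.1 and 85.2 in TertCi HFD. It was -1.07 (adjusted p = 0.0012) in TertCi HFD, called in all 16 alternatives, and 0.93 (adjusted p = 0.0129) with diet. The diet value missed the threshold at 0.93 without mCherry SD rep144 (adjusted p = 0.0566), 0.88 without mCherry SD rep146 (adjusted p = 0.163) and 0.80 without mCherry HFD rep128 (adjusted p = 0.121). Npc2 fell in TertCi HFD, at -1.02 (adjusted p = 0.00295) in all 16 alternatives, and Npc1 at -0.90 (adjusted p = 0.0207), lost at -0.58 without mCherry HFD rep128 (adjusted p = 0.361), -1.22 without TertCi HFD rep138 (adjusted p = 0.0712) and -0.73 without TertCi HFD rep140 (adjusted p = 0.122). Npc2 in Tert HFD was -0.73 (adjusted p = 0.0315) and was lost without any of the 4 mice of that contrast, between -0.84 without Tert HFD rep134 and -0.67 without Tert HFD rep136, and with free RNA subtracted, at -0.62 (adjusted p = 0.1). DESeq2 called neither Npc1 in TertCi HFD, at -0.92 (adjusted p = 0.0934), nor Npc2 in Tert HFD, at -0.76 (adjusted p = 0.187). Abcg1 rose with diet by 1.56 (adjusted p = 0.0208), with 1.13 without mCherry SD rep144 (adjusted p = 0.132) and 1.33 without mCherry HFD rep128 (adjusted p = 0.12). Soat1, Npc2 and Abcg1 too were below poor barcodes in both mCherry HFD mice of this state. They were above them in 6, 4 and 4 of 8 libraries, and Npc1 in 8. The part of free RNA in these values beyond its subtraction was not tested. In this state 3 members were called with diet, 2 in Tert HFD and 4 in TertCi HFD, against 14.1%, 11.9% and 18.8% of all 8388 genes tested.

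Within lipid-associated-like nuclei 1 member was called with diet, on a single SD mouse, 2 for Tert and 1 for TertCi, against 3.3%, 11% and 13.1% of all 12655 genes tested. Soat1 stood at 152 CPM in mCherry SD rep146 alone, 411 and 353 in mCherry HFD, 357 and 319.9 in Tert HFD and 312 and 254 in TertCi HFD, 1.56 (adjusted p = 0.0172) with diet and 1.40 without mCherry HFD rep128 (adjusted p = 0.0532), against 15 UMIs in the 1 SD mouse. Abca1 was higher in Tert HFD by 0.98 (adjusted p = 0.00846) in edgeR. It was 0.86 without mCherry HFD rep128 (adjusted p = 0.0781) and 0.47 (adjusted p = 0.118) at a higher resolution, where the Clec7a and Ms4a7 subcluster joined the state (2871 in place of 2023 nuclei in mCherry HFD rep128). By subcluster, Abca1 stood at 304 and 325 CPM in the Gpnmb and Mmp12 nuclei of mCherry HFD and at 676 and 542 in the separate subcluster of Tert HFD. Apoe stood at 30.4 CPM in mCherry SD rep146 alone, 172 and 183 in mCherry HFD, 61.8 and 11.8 in Tert HFD and 39.2 and 7.11 in TertCi HFD. It was -2.06 (adjusted p = 0.0141) in Tert HFD and -2.49 (adjusted p = 0.00921) in TertCi HFD. The latter was lost at -4.57 without TertCi HFD rep138 (adjusted p = 0.134) and -2.13 without TertCi HFD rep140 (adjusted p = 0.0956). DESeq2 called neither value. Apoe was below the level of poor barcodes in all 7 libraries, and with free RNA subtracted the values were -1.56 (adjusted p = 0.0369) and -1.92 (adjusted p = 0.022).

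**Figure D3:**
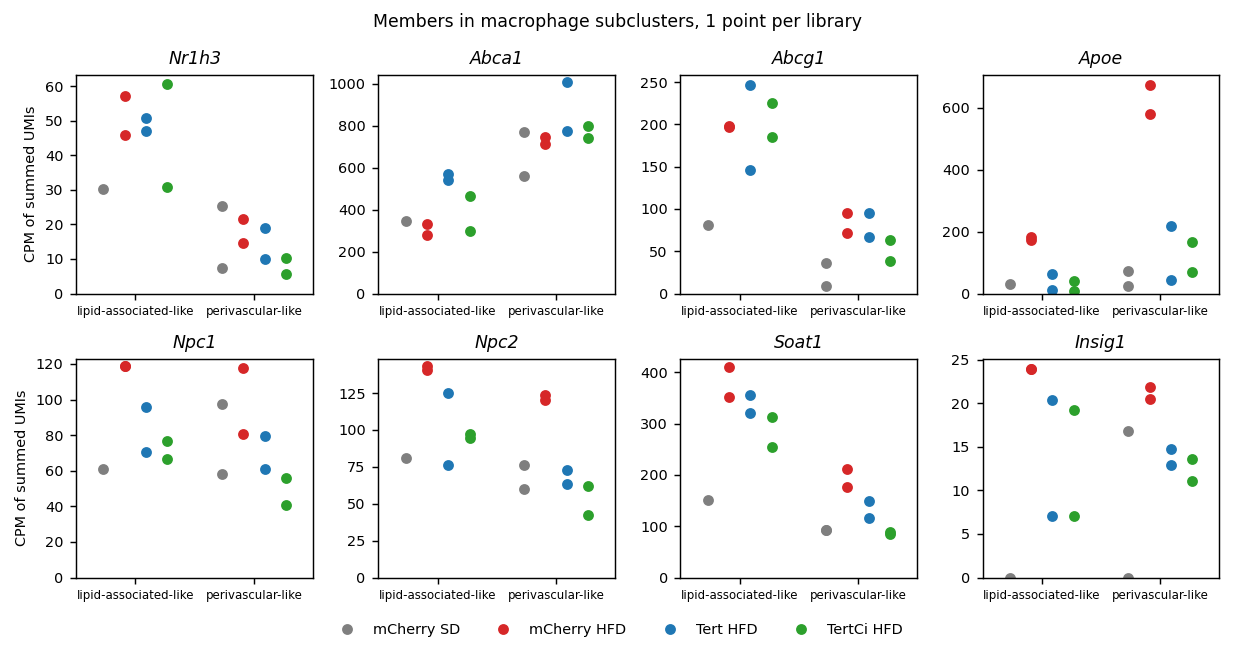
CPM of the 8 genes in lipid-associated-like and perivascular-like nuclei, 1 point per mouse with at least 20 nuclei of the state, coloured by group. Abca1 is higher in the perivascular-like state and Abcg1, Nr1h3 and Soat1 in the lipid-associated-like state, and Apoe of mCherry HFD stands highest in both.

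In adipocyte-like nuclei Insig1, Soat1, Apoe and Npc2 rose with diet, 4 of 8 members against 23% of 14463 genes tested. The class held 588 and 827 nuclei in mCherry SD, 195 and 66 in mCherry HFD, 481 and 855 in Tert HFD and 1734 and 494 in TertCi HFD. Its clusters too were uneven, as one came to 85.9% from Tert HFD rep136 and another to 63.7% from TertCi HFD rep138. Its sums therefore also join the level per nucleus with the makeup of the class. Insig1 stood at 11.1 and 15.99 CPM in mCherry SD, 154 and 86.3 in mCherry HFD, 61.9 and 39.5 in Tert HFD and 33.4 and 45.6 in TertCi HFD. All high-fat mice were above both SD mice, and mCherry HFD was highest. It rose with diet by 2.84 (SE 0.32, adjusted p = 0.000716) in edgeR, in all 16 alternatives. The level was above that of poor barcodes in 4 of 8 libraries, and poor barcodes too were lowest in mCherry SD (16.5 and 24.2 CPM) and highest in mCherry HFD (75.3 and 84.4 CPM). Insig1 fell in TertCi HFD, at -1.21 (adjusted p = 0.0212), a call lost at -0.64 without mCherry HFD rep128 (adjusted p = 0.324) and -0.89 without TertCi HFD rep138 (adjusted p = 0.148). Soat1 stood at 12.2 and 15.3 CPM in mCherry SD, 73.2 and 70.3 in mCherry HFD, 31.04 and 30.3 in Tert HFD and 16.6 and 14.9 in TertCi HFD. It rose by 2.04 (SE 0.24, adjusted p = 0.00084) with diet and was -1.72 (SE 0.23, adjusted p = 0.00289) in TertCi HFD, both in all 16 alternatives. In no library was Soat1 higher in adipocyte-like nuclei than in poor barcodes, and the summed macrophage markers in adipocyte-like nuclei were 673 and 655 CPM in mCherry SD, 986 and 1181 in mCherry HFD, 788 and 558 in Tert HFD and 569 and 549 in TertCi HFD. None of the 8 macrophage markers was at 0 there in 7 of 8 libraries. Apoe was above poor barcodes in 1 of 8 libraries and Npc2 in 3, neither of them in a mCherry HFD mouse. With free RNA subtracted the same 4 members were called with diet and the same 4 for TertCi. The subtraction was small, from 3430307 to 3370979 UMIs in mCherry HFD rep128 and from 498009 to 480777 in mCherry HFD rep129, so it could change these calls little. The part of the macrophage markers in the Soat1, Apoe and Npc2 results, and of the poor-barcode level in the Insig1 result beyond that subtraction, was not tested. Neither was that of the makeup of the class, for which no other clustering was tried.

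Apoe in adipocyte-like nuclei stood at 12.5 and 23.5 CPM in mCherry SD, 129.1 and 149 in mCherry HFD, 51.96 and 12.7 in Tert HFD and 19.8 and 12.05 in TertCi HFD. It rose with diet by 2.57 (adjusted p = 0.00528) and was -2.62 (adjusted p = 0.00654) in TertCi HFD. Without mCherry HFD rep128 these were 2.65 (adjusted p = 0.0533) and -2.70 (adjusted p = 0.0626). Npc2 rose by 0.98 (adjusted p = 0.00534), with 0.87 without mCherry HFD rep128 (adjusted p = 0.0805). Apoe, Npc2 and Soat1 were lower in Tert HFD, 3 of 8 members against 5.19% of genes, at -1.79 (adjusted p = 0.0478), -0.87 (adjusted p = 0.0286) and -0.92 (adjusted p = 0.0468). None of these 3 withstood the loss of either mCherry HFD mouse. Without rep128 they were -1.88, -0.76 and -0.86, and without rep129 -1.66, -0.88 and -0.90. Leaving out either SD mouse or Tert HFD rep136 ended each of them too, leaving out Tert HFD rep134 ended those of Npc2 and Soat1, and leaving out either TertCi mouse ended that of Soat1, with values between -1.75 and -0.73. With free RNA subtracted Apoe was -1.54 (adjusted p = 0.0688). Of the 4 members called for TertCi, against 18.3% of genes, Abca1 was the 1 that rose, at 0.65 (adjusted p = 0.0309). With library totals it was 0.18 (adjusted p = 0.597), and it was lost without any of the 4 mice of its contrast, between 0.63 without TertCi HFD rep138 and 0.76 without TertCi HFD rep140.

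In progenitor-like nuclei, which carry markers of the fibroblast lineage such as Pdgfra, Apoe stood at 1.48 and 7.28 CPM in mCherry SD, 92.6 and 113 in mCherry HFD, 15.6 and 3.21 in Tert HFD and 8.40 and 1.64 in TertCi HFD. Both mCherry HFD mice were far above every other mouse. Apoe rose with diet by 4.15 (SE 0.65, adjusted p = 0.00323) and was -3.00 (SE 0.46, adjusted p = 0.00437) in Tert HFD and -3.87 (SE 0.49, adjusted p = 0.000848) in TertCi HFD, in all 16 alternatives each. The level in poor barcodes was higher in all 8 libraries. The clusters of this class were uneven too. One led by Egfros and Fam227b came to 63.6% from mCherry HFD rep128, and one led by Dchs2 and Amph to 36.6% from TertCi HFD rep138. A change within 1 cluster was not tested. Npc2 rose with diet by 1.31 (adjusted p = 0.0147) and was -0.83 (adjusted p = 0.0275) in TertCi HFD. The diet value was 0.78 without mCherry SD rep146 (adjusted p = 0.163) and 1.26 without mCherry HFD rep128 (adjusted p = 0.0987), and the TertCi call was lost without any of the 4 mice of its contrast, between -0.85 without mCherry HFD rep129 and -0.78 without mCherry HFD rep128. Npc2 was above poor barcodes in 0 of 8 libraries. Neither Npc2 value passed with free RNA subtracted, at 1.09 (adjusted p = 0.0559) with diet and -0.62 (adjusted p = 0.132) in TertCi HFD, and by DESeq2 the latter was -0.83 (adjusted p = 0.0966). The 6 other members were not called. The counts were 2, 1 and 2 for diet, Tert and TertCi, against 11.4%, 10.2% and 18.8% of 12028 genes. Abcg1 was at its lowest of any class here, between 4.44 and 16.9 CPM.

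Endothelial-like nuclei numbered 53 to 202 in the high-fat mice and 23 in mCherry SD rep146, the only SD mouse with the 20 needed, so the diet test again takes the spread of 1 mouse from the other groups. Soat1 stood at 37.1 CPM in mCherry SD rep146 alone, 251 and 207 in mCherry HFD, 80.6 and 95.6 in Tert HFD and 66.5 and 64.9 in TertCi HFD. It was 2.62 (SE 0.55, adjusted p = 0.0154) with diet, -1.46 (SE 0.26, adjusted p = 0.00229) in Tert HFD and -1.76 (SE 0.26, adjusted p = 0.000283) in TertCi HFD. Abcg1 stood at 55.6 CPM in mCherry SD rep146 alone, 141 and 105 in mCherry HFD, 69.04 and 22.5 in Tert HFD and 64.1 and 44.6 in TertCi HFD. It fell in Tert HFD, at -1.19 (adjusted p = 0.0347) and in TertCi HFD, at -1.09 (adjusted p = 0.0328). The members called were 2 with diet (Apoe, Soat1), 4 for Tert (Abcg1, Apoe, Npc2, Soat1) and 5 for TertCi (the same with Npc1), against 2.89%, 9.2% and 17.4% of 7066 genes. The diet calls rest on 4 UMIs of each gene in SD. Soat1 was below the level of poor barcodes in both mCherry HFD mice and above it in 3 of 7 libraries. Apoe was above that level in 2 of 7 libraries, Npc1 in 2, Npc2 in 1 and Abcg1 in 5. Apoe reached at most 275 CPM, below the poor barcodes of both mCherry HFD mice (1352 and 1012 CPM). The 8 macrophage markers summed in endothelial-like nuclei to 2187 CPM in mCherry SD rep146, 2751 and 2665 in mCherry HFD, 2307 and 1867 in Tert HFD and 1473 and 2062 in TertCi HFD, highest in mCherry HFD, with at most 1 at 0, and their part in these results was not tested. With free RNA subtracted 1, 3 and 4 members were called, and Soat1 was among them in each contrast. Apoe and Soat1 in TertCi HFD stayed called with each mouse left out. Without mCherry HFD rep128 no diet or Tert call was left, with Soat1 at 2.44 (adjusted p = 0.112) and -1.27 (adjusted p = 0.167). For Abcg1 the Tert value was -0.94 without mCherry HFD rep128 (adjusted p = 0.497) and -0.89 without Tert HFD rep136 (adjusted p = 0.122), and the TertCi value -0.82 without mCherry HFD rep128 (adjusted p = 0.443), -1.45 without TertCi HFD rep138 (adjusted p = 0.0658) and -0.86 without TertCi HFD rep140 (adjusted p = 0.113). DESeq2 called 0, 1 and 2 members. In mural-like nuclei, with 34 to 116 nuclei per high-fat mouse, Apoe stood at 26.3 CPM in mCherry SD rep146 alone, 205 and 242 in mCherry HFD, 40.1 and 21.9 in Tert HFD and 13.01 and 0 in TertCi HFD. It fell, at -2.63 (adjusted p = 0.00205) in Tert HFD and rose by 2.92 (adjusted p = 0.00859) with diet, and Soat1 fell, at -1.97 (adjusted p = 0.0101) and -1.73 (adjusted p = 0.00677) in Tert and TertCi HFD. Apoe in TertCi HFD was called too, with no UMI in rep140, and the diet call of Soat1 rested on 1 UMI in SD. In mCherry HFD Apoe was below poor barcodes (1352 and 1012 CPM), which were likewise far higher in that group than in the others, and Soat1 was below them in all 7 libraries. The macrophage markers summed in mural-like nuclei to 880.2 CPM in mCherry SD rep146, 1909 and 1598 in mCherry HFD, 1475 and 679 in Tert HFD and 987 and 599 in TertCi HFD, with at most 2 at 0, and their part was not tested. With free RNA subtracted the same members were called, but DESeq2 called neither with diet and only Apoe in each genotype. These are 2 members in each contrast, with 1 mouse in SD, against 6.67%, 3.44% and 8.16% of 5353 genes. Without Tert HFD rep134 the Tert values were -3.18 (adjusted p = 0.0609) for Apoe and -1.38 (adjusted p = 0.245) for Soat1. The TertCi value of Soat1 was -1.86 without mCherry HFD rep128 (adjusted p = 0.0937) and -1.76 without TertCi HFD rep138 (adjusted p = 0.128), and without mCherry HFD rep128 its Tert value was -2.08 (adjusted p = 0.103).

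**Figure D4:**
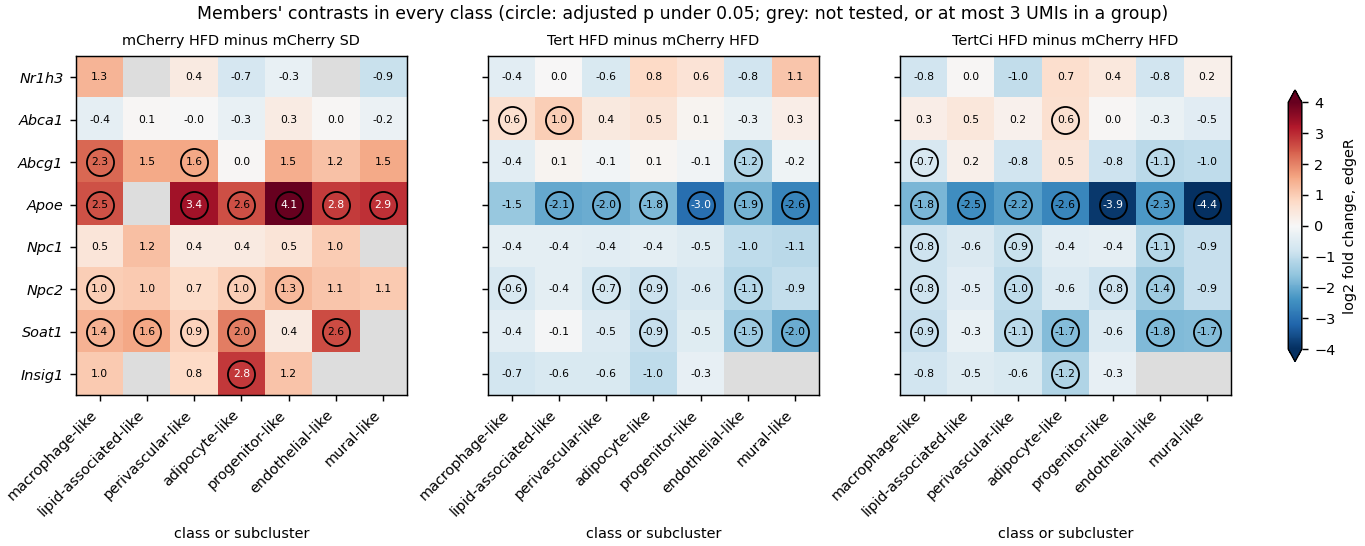
Log2 fold change of each gene (rows) in each class or macrophage state (columns) for the 3 contrasts, from edgeR. Circles mark an adjusted p under 0.05, and grey cells were not tested or held at most 3 UMIs in a group. Apoe is red for diet in each cell shown and blue for both genotypes throughout, while the circles of Abca1 lie in 2 columns for Tert and 1 for TertCi.

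Whether a change differed between classes was tested in a model of both classes with each mouse as a block. With diet, Abcg1 rose by 2.41 more in macrophage-like than in adipocyte-like nuclei (SE 0.37, adjusted p = 0.000228 by edgeR). In the latter it stood at 34.00 and 46.4 CPM in mCherry SD, 59.8 and 40.2 in mCherry HFD, 56.9 and 32.9 in Tert HFD and 59.6 and 47.1 in TertCi HFD, with no group apart. Nr1h3 differed too, by 2.10 (adjusted p = 0.00555). In adipocyte-like nuclei it stood at 66.9 and 57.02 CPM in mCherry SD, 59.5 and 30.1 in mCherry HFD, 64.3 and 71.5 in Tert HFD and 48.96 and 65.5 in TertCi HFD, where mCherry HFD held the lowest value. Abcg1 and Nr1h3 were the 2 of 8 members called, against 5.15% of 16108 genes, and Insig1 was not, at -1.70 (adjusted p = 0.165). In TertCi HFD the same 2 differed in the opposite direction, Abcg1 by -1.25 (adjusted p = 0.00936) and Nr1h3 by -1.48 (adjusted p = 0.00663), against 7.57% of genes. Nr1h3 alone differed in Tert HFD, by -1.30 (adjusted p = 0.0302), against 2.26%. Against progenitor-like nuclei, Soat1 rose with diet by 1.05 more in macrophage-like nuclei (adjusted p = 0.014), 1 member against 5.37% of 13689 genes. Apoe fell less there, by 1.61 in the Tert and 2.05 in the TertCi contrast (adjusted p = 0.00244 and 0.000377), against 2.1% and 4.16%. In progenitor-like nuclei Apoe was above poor barcodes in 0 of 8 libraries. Poor barcodes held 1352 and 1012 CPM of it in mCherry HFD, 168 and 16.4 in Tert HFD and 61.9 and 22.5 in TertCi HFD. The part of free RNA in these Apoe differences was not tested.

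Some of these calls were lost when 1 mouse was left out, which leaves a group of 1, while the estimates kept their direction. Nr1h3 with diet was 1.96 (adjusted p = 0.122) without mCherry SD rep146, and in Tert HFD -1.12 (adjusted p = 0.129) without Tert HFD rep134. Abcg1 in TertCi HFD was -1.07 (adjusted p = 0.0594) without TertCi HFD rep138. Soat1 with diet was 1.07 (adjusted p = 0.0519) without mCherry SD rep144, 1.08 (adjusted p = 0.199) without rep146 and 0.98 (adjusted p = 0.078) without mCherry HFD rep128. Apoe in Tert HFD was 1.24 (adjusted p = 0.663) without Tert HFD rep134. Abcg1 with diet, Nr1h3 in TertCi HFD and Apoe in TertCi HFD were called with each mouse left out. The diet difference of Nr1h3 rests on macrophage-like values of 6 and 9 UMIs in SD, and all 3 of its differences on levels near those of poor barcodes, which were 28.9 and 55.02 CPM in mCherry SD, 39.8 and 33.4 in mCherry HFD, 29.3 and 43.6 in Tert HFD and 28.5 and 46.98 in TertCi HFD.

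Over all libraries, each gene had its own order of the 5 classes with at least 20 nuclei in 7 or more libraries, given here as mean CPM ± SD over the 8 libraries, or 7 for endothelial-like and mural-like nuclei. These SDs include the spread between groups. Abca1 was highest in adipocyte-like (618 ± 101) and macrophage-like nuclei (589 ± 109.9), which did not differ beyond their spread, then endothelial-like (408 ± 68.03), progenitor-like (339.9 ± 71.2) and mural-like (270.4 ± 85.9), each of these within the spread of the next. Abcg1 ran from macrophage-like (109 ± 58.6) through endothelial-like (71.7 ± 39.5), mural-like (67.9 ± 36.6) and adipocyte-like (47.1 ± 10.9) to progenitor-like nuclei (9.78 ± 5.19), and only the last step exceeded the SDs. Soat1 was highest in macrophage-like nuclei (197 ± 86.1), followed by endothelial-like (115 ± 80.9), mural-like (71.9 ± 62.3), progenitor-like (50.6 ± 12.01) and adipocyte-like (32.97 ± 24.9), each within the spread of the next. Npc1 was also highest in macrophage-like nuclei (76.9 ± 23.4), next to progenitor-like (50.5 ± 12.3), without a difference beyond their spread. Nr1h3 was higher in mural-like (62.6 ± 24.1) and adipocyte-like (57.97 ± 13.2) than in progenitor-like (29.2 ± 5.25), macrophage-like (25.6 ± 11.1) and endothelial-like nuclei (23.2 ± 10.4). Insig1 averaged 55.9 ± 46.3 in adipocyte-like nuclei and 13.4 to 16.1 CPM in the other 4 of these classes, with a spread in the former nearly as large as its mean and a mean of 48.9 ± 23.4 CPM in poor barcodes. An epithelial-like class with enough nuclei in mCherry HFD rep128 alone, where Insig1 stood at 28.7 and Npc2 at 101 CPM, was left out of the orders. For Apoe (126 ± 116 in macrophage-like and 109 ± 104 in endothelial-like nuclei) and Npc2 (85.1 ± 30.6 and 73.00 ± 32.6 in the leading macrophage-like and adipocyte-like nuclei) the spread between groups covered the order of the leading classes.

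**Figure D5:**
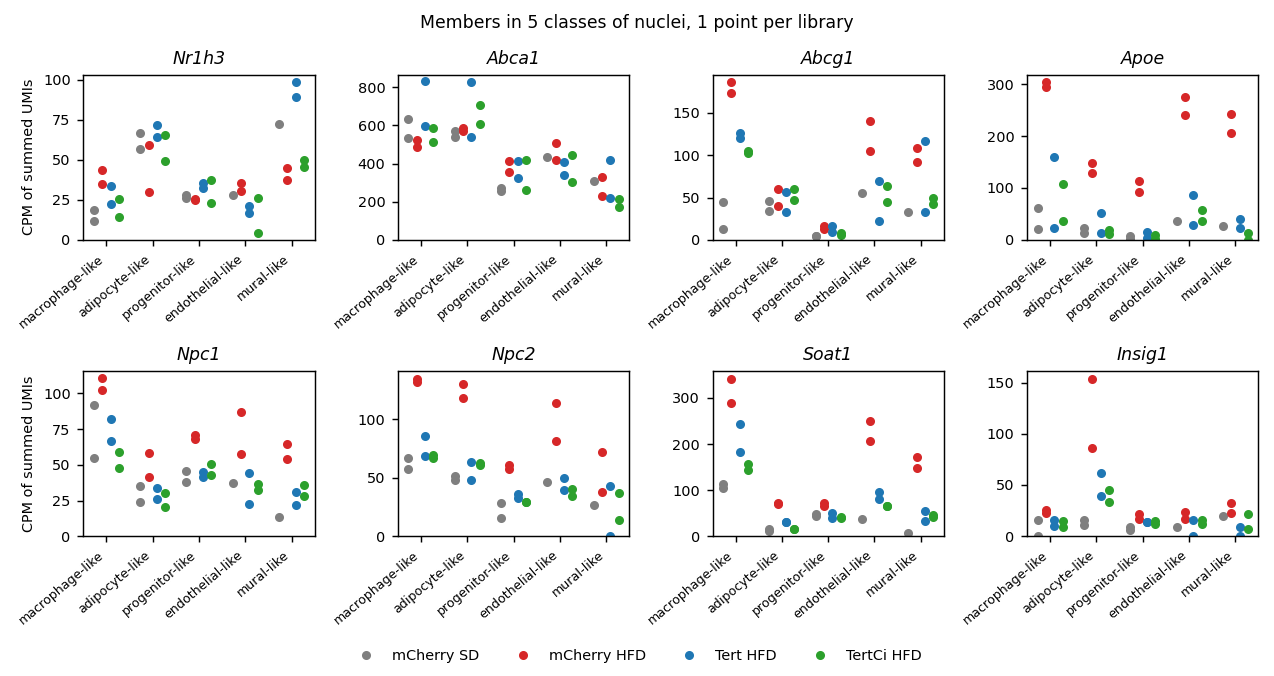
CPM of the 8 genes in 5 classes of nuclei, 1 point per mouse with at least 20 nuclei of the class, coloured by group. Soat1 and Abcg1 are led by macrophage-like nuclei of mCherry HFD, Insig1 by adipocyte-like nuclei of mCherry HFD, and Apoe of mCherry HFD lies above the other groups in all 5 classes.

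Summed over all kept nuclei, where the makeup of the tissue enters, all 8 members were called with diet against 40.7% of 21101 genes, 6 for Tert against 21.8% and 7 for TertCi against 35.5%. Macrophage-like nuclei made up 3.8% and 5.3% of mCherry SD, 49.98% and 48.1% of mCherry HFD, 26.5% and 28.9% of Tert HFD, and 19.9% and 15.3% of TertCi HFD. Here fewer cells of a type and less RNA per cell cannot be told apart. Clusters from 1 mouse alone entered these sums too, such as an epithelial-like one of 120 nuclei in mCherry HFD rep128. A mixed one of 283 nuclei came from mCherry SD rep146 alone. Soat1 rose with diet by 2.26 (adjusted p = 0.000206) and fell in TertCi HFD, at -1.84 (adjusted p = 0.000559), with every mouse left out in turn. Nr1h3 and Abca1 went the other way, with diet changes of -0.89 (adjusted p = 0.0348) and -0.42 (adjusted p = 0.0344). With library totals these were -0.42 (adjusted p = 0.139) and 0.04 (adjusted p = 0.841), and the median of all genes moved from 0.05 to 0.51. With 1 mouse left out the count was between 0 and 5 members for Tert and between 1 and 7 for TertCi. It was 0 for Tert and 1 for TertCi without mCherry HFD rep128.

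Other genes of cholesterol handling were taken from 5 lists by function, 82 genes of which 70 could be tested in macrophage-like nuclei. With diet 16 rose and 7 fell, 32.9% of them against 21.1% of all genes tested, and their median log2 change was 0.40 against 0.11. For Tert 7 rose and 7 fell (20.0% against 19.1%, median -0.21 against -0.05), and for TertCi 7 rose and 14 fell (30% against 25.7%, median -0.26 against -0.08). By direction, 11.5% of all genes tested rose and 9.54% fell with diet, 7.41% and 11.7% for Tert, and 10.4% and 15.3% for TertCi, and the counts of each list stand against these shares. 

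Of 25 tested genes of synthesis and its SREBP2 control, 5 rose with diet and none fell. Hmgcs1, an early enzyme of the pathway, was among them. Dhcr7, which makes the last step to cholesterol, and Fdps had no UMI in SD and were at least 2.43-fold and 1.92-fold higher in mCherry HFD, against a floor of 3 UMIs over the SD group. In Tert HFD 2 of the 25 fell, a smaller share than among all genes tested, among them Sqle at -1.45 (adjusted p = 0.0422). In TertCi HFD 5 of the 25 fell, a share near that of all genes, among them Cyp51 at -1.35 (adjusted p = 0.0223), Dhcr7 at -1.49 (adjusted p = 0.0409) and Mvd at -2.40 (adjusted p = 0.0288), the last on 5 UMIs in that group. Insig2, the relative of Insig1, was -0.11 (adjusted p = 0.842) with diet.

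Of 10 tested genes of lipoprotein uptake, 5 rose with diet and 1, the scavenger receptor Msr1, fell. Lrp1, an endocytic receptor that binds apolipoprotein E, rose by 1.94 (adjusted p = 8.95e-06), from 128.3 to 551 CPM. In Tert HFD 2 fell (Lrp1, Cd36) and in TertCi HFD 4, these among them. Of 17 tested genes of lysosomal release and sterol carriage, 5 rose and 1 fell with diet, 2 rose and 3 fell for Tert, and 2 rose and 5 fell for TertCi. Lipa, the acid lipase that frees cholesterol from esters in lysosomes, rose with diet by 2.18 (adjusted p = 1.98e-05), from 88.2 to 441 CPM. It fell in Tert HFD, at -0.90 (adjusted p = 0.00312). Osbpl2, a sterol carrier, rose in Tert HFD by 0.89 (adjusted p = 0.03).

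Of 12 tested LXR partners and targets, 1 rose with diet, the phospholipid carrier Pltp, and 3 fell. For Tert 2 rose and none fell, and the same held for TertCi. The 2 that rose were Rxra, the obligate partner of LXR, by 1.28 (adjusted p = 0.00346) and 1.33 (adjusted p = 0.00195), and Scd1, a fatty acid desaturase, by 1.25 (adjusted p = 0.00609) and 1.23 (adjusted p = 0.00503). The list of ester turnover and oxysterols also holds transporters such as Abca6 and Abca9. Of its 7 tested genes, 1 rose and 2 fell with diet, 3 rose for Tert, and 3 rose and 1 fell for TertCi. Nceh1, a cholesteryl ester hydrolase, rose with diet by 2.09 (adjusted p = 2.87e-05) from 101 to 475 CPM. The transporters Abca6 and Abca9 were higher in Tert HFD, by 1.02 (adjusted p = 0.0366) and 0.95 (adjusted p = 0.00322), and in TertCi HFD, by 1.57 (adjusted p = 0.00313) and 1.17 (adjusted p = 0.000659). Lipe, hormone-sensitive lipase, fell with diet, at -1.95 (adjusted p = 0.00225) and was higher in Tert and TertCi HFD by 1.38 (adjusted p = 0.00855) and 1.31 (adjusted p = 0.00871). Lipe and Scd1 are abundant in adipocytes. The 8 adipocyte markers summed in macrophage-like nuclei to 1524 and 2042 CPM in mCherry SD, 149.8 and 344 in mCherry HFD, 704 and 1056 in Tert HFD and 1298 and 714 in TertCi HFD, with mCherry HFD lowest, as for Lipe and Scd1, and their part in these values was not tested.

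For each member the 3 genes most like it were sought among 9346, by Pearson correlation of log2(CPM + 5) over 38 sums of a class in a library. The sums share mice, depth and free RNA, so the correlations are a description. Soat1 was closest to Fgd4, P2rx4 and Rasa1 (r = 0.94 each), and Apoe to Gpx1, Insyn2b and Atp6v0c (r = 0.93, 0.92 and 0.91). Abcg1 was closest to Mgat5, Chst11 and Sh3kbp1 (r = 0.91, 0.90 and 0.87), Npc2 to Phka2, Rragc and Txnrd1 (r = 0.87, 0.87 and 0.86), and Npc1 to Bri3, Metrnl and Serpinb6a (r = 0.87, 0.85 and 0.83). Insig1 (Gm46440, Gm15414 and Ifi27), Abca1 (Vps13c, Dnajc15 and Glul) and Nr1h3 (Ift43, Fhip1b and Vwa8) had no gene above 0.84, 0.82 and 0.77. Among the members themselves Npc1 and Soat1 were most alike (r = 0.80), followed by Abca1 and Npc2 (r = 0.69) and Abcg1 and Apoe (r = 0.68), whereas Nr1h3 and Soat1 went in opposite directions over these sums (r = -0.43). The sums pool classes. Within macrophage-like nuclei Nr1h3 and Soat1 were both highest in mCherry HFD, and both averaged higher in the lipid-associated-like than in the perivascular-like state.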

How the data were processed

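Nuclei were isolated from snap-frozen visceral fat, sorted by DAPI and run on the 10x 3' platform in batches of 2, per the labels' protocols. Which mice shared a batch is not recorded, so batch and group cannot be told apart. The authors deposited UMI counts per gene and barcode, whole numbers with no normalization. The counts were made with Cell Ranger 7.1.0 per the file headers, while the submitters' processing notes name Cell Ranger 5.0.1, bcl2fastq 2.20.0 and the build mm39. No setting for intronic reads is given in the sources used here. Nuclear RNA holds unspliced transcripts, so levels may differ from those of whole cells.

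Barcodes were kept as nuclei with at least 500 UMIs and at least 0.1 times the 99 percentile of the 5000 largest barcodes, 300 or more genes, and no more than 5% of their UMIs from mitochondria. The percentile rule set the UMI cutoff in every library. The lowest cutoff, 987 UMIs, fell to Tert HFD rep136, and the highest, 4704 UMIs, to mCherry HFD rep128. Class sizes, shares of nuclei and median depths were counted above these unequal cutoffs, whose part in them was not tested. The doublet caller's automatic threshold marked too few nuclei to have worked, so the highest scores were removed at 0.8% per 1000 nuclei. Nuclei were clustered in scanpy 1.11.5 on 1995 variable genes (30 principal components, 15 neighbours, Leiden resolution 1, 36 clusters). A cluster was named from markers raised by at least a factor of 2 over the lower quartile of clusters, with at least 3 raised markers. The 17 mixed clusters, with markers of more than 1 lineage, entered no class and held 18.9% to 64.7% of nuclei in a library. UMIs were summed per mouse and class (at least 20 nuclei) and tested with edgeR 4.0.16 (TMM scaling, filterByExpr, 1 fit over the 4 groups, p-values adjusted over all genes). CPM here are a gene's UMIs per 1000000 UMIs of its sum.

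The genes named are the 8 members in every class, of the 5 lists the called genes with the largest changes per contrast (up to 8, over all lists together), and the 3 genes most correlated with each member. In addition, Hmgcs1, Msr1, Pltp, Cd36 and Insig2 were named after their values were seen, and some genes that the rule names are not reported here. The members and lists were chosen with earlier results of these data known. Alternatives were DESeq2 1.42.0, its size factors, library totals, no filter on low counts, fits of only the 2 groups, free RNA subtracted in each class and state, and each mouse left out in turn. Doublets were kept as an alternative for macrophage-like, adipocyte-like and progenitor-like nuclei alone, and other clusterings were tried for macrophage-like nuclei and their states alone. A minimum of 1000 UMIs per nucleus was set for these classes and states, and it removed nuclei from Tert HFD rep136 alone. Mixed clusters were also added to the class of their best markers. This left the sums of macrophage-like nuclei unchanged, so it could not move a value there. The scripts for testing were tested on simulated data. Mice are separate samples by their labels, and p-values measure the spread between them.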

Additional observations from a re-analysis of the deposited data

Results flagged for a closer look

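In 8 cases the change in a contrast differed between classes of nuclei by a test of the difference itself (edgeR with each mouse as a block, 8 libraries, adjusted over all genes). Macrophage-like minus adipocyte-like, the diet change was larger by 2.41 for Abcg1 (SE 0.37, adjusted p = 0.000228) and by 2.10 for Nr1h3 (SE 0.46, adjusted p = 0.00555) on the log2 scale. In the Tert contrast the difference for Nr1h3 was -1.30 (SE 0.32, adjusted p = 0.0302). In the TertCi contrast it was -1.25 for Abcg1 (SE 0.29, adjusted p = 0.00936) and -1.48 for Nr1h3 (SE 0.33, adjusted p = 0.00663). Macrophage-like minus progenitor-like, the diet change was larger by 1.05 for Soat1 (SE 0.23, adjusted p = 0.014). The Apoe differences were 1.61 in the Tert contrast (SE 0.24, adjusted p = 0.00244) and 2.05 in the TertCi contrast (SE 0.26, adjusted p = 0.000377). All 3 contrasts use the mCherry HFD mice. In progenitor-like nuclei Apoe was above poor barcodes in 0 of 8 libraries. The part of free RNA in the Apoe differences was not tested.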

How the results depend on the processing

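With 2 mice per group, many calls were lost when a single mouse was left out. No paired analysis was possible because the replicate numbers differ between groups. Of 528 values of single members in macrophage-like nuclei under the alternatives, 464 kept their direction and side of the threshold, 29 lost a call, 33 gained one and 2 reversed. For members called in other classes, states or all nuclei 766 of 932 values did, 165 lost the call and 1 reversed. Of 72 values of differences between classes 65 did, and of 667 counts 540 stayed within a factor of 1.5. These totals include settings that could move little or nothing. Adding mixed clusters left the macrophage-like sums unchanged, and a minimum of 1000 UMIs changed Tert HFD rep136 alone. The reversed values were Npc1 with diet in macrophage-like nuclei, at -0.00231 without mCherry SD rep146 (up to 0.83 without rep144), Nr1h3 in Tert HFD there, at 0.0185 without Tert HFD rep134 (down to -0.70 without rep136), and Abca1 with diet over all nuclei, at 0.0437 with library totals. For none of the values below was the cause of a move tested. Counts of members called are given for diet, Tert and TertCi.

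With each mouse left out in turn, the counts ran from 3 to 6, 0 to 3 and 0 to 6 in macrophage-like nuclei, 0 to 2, 1 to 3 and 0 to 2 in lipid-associated-like, 1 to 4, 1 to 2 and 3 to 5 in perivascular-like, 2 to 4, 0 to 2 and 1 to 4 in adipocyte-like, 1 to 2, 1 to 1 and 1 to 3 in progenitor-like, 0 to 2, 0 to 4 and 2 to 5 in endothelial-like, and 2 to 2, 0 to 2 and 1 to 2 in mural-like nuclei. They ran from 5 to 8, 0 to 5 and 1 to 7 over all nuclei. Members whose change differed from macrophage-like nuclei numbered 1 to 3, 0 to 1 and 1 to 3 for adipocyte-like, and 0 to 3, 0 to 2 and 1 to 2 for progenitor-like nuclei. Between Tert and TertCi, 0 members were called in every class with each mouse left out. Genes of the 5 lists called higher ran from 5 to 18, 3 to 8 and 2 to 8, and those called lower from 5 to 12, 1 to 9 and 3 to 15.

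DESeq2 in place of edgeR gave, for lipid-associated-like nuclei, 1 in place of 2 members for Tert and 0 in place of 1 for TertCi, and for perivascular-like nuclei 0 in place of 2 and 2 in place of 4. It gave 1 in place of 2 for TertCi in progenitor-like nuclei, 0, 1 and 2 in place of 2, 4 and 5 in endothelial-like nuclei, and 0, 1 and 1 in place of 2, 2 and 2 in mural-like nuclei. Over all nuclei it called 1 in place of 0 between Tert and TertCi, and in the lists 9 in place of 14 lower genes for TertCi. Its size factors in edgeR gave 2 in place of 1 for TertCi in lipid-associated-like nuclei. Without a filter on low counts there were 3 in place of 1 with diet in lipid-associated-like nuclei, 1 in place of 2 for Tert in perivascular-like, 5 in place of 3 for Tert in adipocyte-like, 2 in place of 0 between Tert and TertCi over all nuclei, and 2 in place of 1 in each contrast for differences from progenitor-like nuclei. Fits of only the 2 groups gave 3 in place of 1 with diet and 2 in place of 1 for TertCi in lipid-associated-like nuclei, 0 in place of 3 for Tert in adipocyte-like nuclei, and 4 in place of 7 lower list genes for Tert. Library totals gave 4 in place of 2 with diet and 2 in place of 1 for Tert in progenitor-like nuclei, and 4 higher and 12 lower in place of 7 and 7 list genes for Tert. With free RNA subtracted, 3 in place of 5 members were called for TertCi in macrophage-like nuclei, 1 in place of 2 with diet and for TertCi in progenitor-like nuclei, 1 in place of 2 for Tert in perivascular-like nuclei and 1 in place of 2 with diet in endothelial-like nuclei. Leaving out the cluster led by Tmem267, Cd226 and Skint3, or the cycling cluster with the Tmem267 and Taco1 subcluster, gave 5 in place of 2 for Tert in macrophage-like nuclei. The first exclusion removed 168 and 576 nuclei from Tert HFD, 391 and 131 from TertCi HFD and 108 and 60 from mCherry HFD. The second removed 225 and 449 from Tert HFD, 295 and 94 from TertCi HFD and 338 and 93 from mCherry HFD. A subcluster resolution of 0.8 gave 1 in place of 2 for Tert in lipid-associated-like nuclei. Library totals, free RNA subtraction and both exclusions of clusters were chosen after seeing the data, and a fit of the Gpnmb and Mmp12 subcluster alone could not be made.

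Unthinned, the mean share of macrophage-like nuclei with a UMI was 69.2% in place of 38.1% for Abca1, 26.8% in place of 9.16% for Abcg1, 29.2% in place of 10.0% for Apoe, 24.996% in place of 7.29% for Npc1, 28.3% in place of 7.85% for Npc2, 9.52% in place of 2.77% for Nr1h3, 6.07% in place of 1.64% for Insig1 and 43.5% in place of 16.4% for Soat1. Few nuclei (97 and 159) limit the SD values, where macrophage-like nuclei held between 0 and 34 UMIs of Abcg1, Nr1h3 and Insig1 per mouse.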
